A study of Homo sapiens with 8 samples.

Results

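The zinc finger genes at the telomeric end of the long arm of chromosome 19 (19q13.4) were examined for H3K9me3, a histone mark of silent chromatin, and H3K4me3, a mark of active promoters. The members were all protein-coding genes whose symbol starts with ZNF and whose transcription start site (TSS) lay in the part of 19q13.4 nearest the end of the chromosome, from 54.5 Mb of hg38 onwards, from ZNF628 to ZNF446. This gave 59 of 19970 protein-coding genes. A further 190 ZNF genes lay elsewhere on chromosome 19, and 267 lay on other chromosomes. The rule itself uses position and symbol and no measured value.

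SUM159, a mesenchymal triple-negative breast cancer line, carried dCas9-KRAB from a lentiviral vector (pLV) in every sample, and transduced cells were kept as a puromycin-selected population. The All gRNA cells also expressed 4 guide RNAs directed to the ZEB1 promoter, and the No gRNA cells received the empty vector and no guide. The chromatin of both groups was therefore exposed to the KRAB fusion, and there were no cells without it. Each mark was measured by native ChIP-seq in 2 All gRNA and 2 No gRNA samples labelled as biological replicates, which makes 8 libraries, and the peaks of each library were analysed.

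KRAB zinc finger proteins bind DNA through arrays of C2H2 fingers and recruit the corepressor KAP1 (TRIM28), which in turn brings the H3K9 methyltransferase SETDB1 and HP1. The genes that encode these proteins arose by repeated duplication, lie in tandem on chromosome 19, and are themselves known to be packaged in H3K9me3 in many cell types, above all over the exons that encode the fingers. ZNF274, a member of the set, is known to bind the 3′ ends of zinc finger genes and to recruit SETDB1 there.

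The encoded proteins were read from the reference transcripts. A KRAB box pattern was found in 43 of the 59, and 16 had no match. Absence of a match does not show that a diverged box is missing (ZNF471, for which a KRAB box is known, did not match). The 59 proteins held 662 C2H2 fingers, from 3 to 23 in a gene, and 646 of these were encoded in the last exon. Sequences of 3 genes show what the genes have in common and where they differ. ZNF835 (ENSG00000127903.14, chr19:56661980-56671783, minus strand) was the first along the chromosome of 11 genes with 100% H3K9me3 coverage in every library, ZNF628 (ENSG00000197483.11, chr19:55476617-55484487, plus strand) the first of 17 with none, and ZNF274 (ENSG00000171606.18, chr19:58183029-58213562, plus strand) is the gene of the recruiting factor. The first 3 are coding stretches from the last exon that open at a cysteine of the first finger. Capitals mark matches to the motif ACNGGNGANNNNCC, the codons of the linker that joins adjacent fingers.

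ZNF835 fingers (hg38, chr19:56664614-56664865, minus strand): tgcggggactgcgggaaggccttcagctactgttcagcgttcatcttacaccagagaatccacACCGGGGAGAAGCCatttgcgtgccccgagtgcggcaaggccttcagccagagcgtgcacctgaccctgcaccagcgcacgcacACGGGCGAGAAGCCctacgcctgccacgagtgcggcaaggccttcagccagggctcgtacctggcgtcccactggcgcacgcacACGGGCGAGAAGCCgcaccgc
ZNF274 fingers (hg38, chr19:58212706-58212957, plus strand): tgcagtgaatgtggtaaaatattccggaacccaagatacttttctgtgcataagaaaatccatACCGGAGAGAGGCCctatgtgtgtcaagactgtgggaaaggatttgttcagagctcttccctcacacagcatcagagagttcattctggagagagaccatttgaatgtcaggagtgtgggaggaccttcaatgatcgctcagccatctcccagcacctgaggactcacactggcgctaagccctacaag
ZNF628 fingers (hg38, chr19:55481305-55481556, plus strand): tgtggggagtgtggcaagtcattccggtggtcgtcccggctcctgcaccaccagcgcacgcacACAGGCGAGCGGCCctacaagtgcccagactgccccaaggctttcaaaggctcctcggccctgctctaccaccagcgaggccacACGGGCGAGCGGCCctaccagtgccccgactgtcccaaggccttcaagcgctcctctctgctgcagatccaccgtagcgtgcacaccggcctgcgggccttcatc

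On either strand the linker motif was found in the last exon of 52 of 59 members (88.1%), with 363 matches. It was present in 96.3% of the other ZNF genes of chromosome 19, in 67.4% of ZNF genes of other chromosomes and in 4.11% of genes outside the ZNF symbols. All 3 stretches carry it, so that this repeat unit was shared by genes with full H3K9me3 coverage and a gene with none. The motif was chosen after the sequences had been seen.

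The promoters of the same genes follow, taken from RefSeq (GRCh38.p14) as 250 bases before and 50 bases after the RefSeq start, with CG dinucleotides in capitals. Of the members, 54 of 59 matched an entry of that table.

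ZNF835 promoter (GRCh38.p14, chr19:56671708-56672007, minus strand): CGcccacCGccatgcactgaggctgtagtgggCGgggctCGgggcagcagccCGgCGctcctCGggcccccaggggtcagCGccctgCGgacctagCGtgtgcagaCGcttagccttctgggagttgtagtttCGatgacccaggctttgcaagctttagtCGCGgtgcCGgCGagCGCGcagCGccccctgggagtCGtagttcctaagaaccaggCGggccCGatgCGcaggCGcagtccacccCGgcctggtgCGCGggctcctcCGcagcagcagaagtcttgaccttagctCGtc
ZNF274 promoter (GRCh38.p14, chr19:58182811-58183110, plus strand): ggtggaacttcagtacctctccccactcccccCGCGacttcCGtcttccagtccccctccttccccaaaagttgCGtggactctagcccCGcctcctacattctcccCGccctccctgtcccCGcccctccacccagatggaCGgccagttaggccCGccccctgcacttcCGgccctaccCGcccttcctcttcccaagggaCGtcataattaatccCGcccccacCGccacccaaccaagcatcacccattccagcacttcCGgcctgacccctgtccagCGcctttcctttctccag
ZNF628 promoter (GRCh38.p14, chr19:55476367-55476666, plus strand): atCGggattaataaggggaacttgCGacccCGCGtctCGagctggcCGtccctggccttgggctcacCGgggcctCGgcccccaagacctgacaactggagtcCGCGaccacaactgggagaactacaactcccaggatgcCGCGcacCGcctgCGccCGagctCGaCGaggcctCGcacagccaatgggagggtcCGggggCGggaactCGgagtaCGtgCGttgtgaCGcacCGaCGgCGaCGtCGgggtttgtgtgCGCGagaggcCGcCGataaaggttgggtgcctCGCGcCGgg

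These windows held 29, 16 and 36 CG dinucleotides for ZNF835, ZNF274 and ZNF628. The members ranged from 11 to 42 with a median of 23, against a median of 14 over all 35116 RefSeq promoters. The gene covered throughout by H3K9me3 and the gene with no H3K9me3 peak at the threshold thus both had CG-rich starts.

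Coverage is given as the percentage of a window that lay under deposited peaks with q ≤ 0.05. The windows were the gene body and TSS ± 10 kb for H3K9me3, and TSS ± 1 kb for H3K4me3. The number of such peaks differed widely between libraries, from 10551 (No gRNA replicate 1) to 36131 (No gRNA replicate 2) for H3K9me3 and from 3067 (All gRNA replicate 2) to 13877 (No gRNA replicate 2) for H3K4me3. They covered 97.6 to 238.1 Mb and 19.3 to 114.6 Mb. Sequencing depth is unknown. For H3K4me3, the names of the deposited files assign the libraries labelled All gRNA replicate 2 and No gRNA replicate 1 to the opposite conditions. The targeted gene was checked first. H3K9me3 covered 22.8% and 67.3% of TSS ± 10 kb of ZEB1 in the All gRNA libraries and 0% and 0% in the No gRNA libraries, so that the groups did not overlap. Over the ZEB1 gene body they did overlap, at 11.4% and 4.50% with guides and at 0% and 5.38% without. In neither window was the gap wide enough for ZEB1 to be called by the rule used below for the members. H3K4me3 covered TSS ± 1 kb of ZEB1 to 0% and 100% with the All gRNA label and to 0% and 100% with the No gRNA label. The libraries of 1 label thus differed from each other at the targeted promoter, and with these 2 libraries exchanged as the file names have them the values would be 0% and 0% with guides against 100% and 100% without. ZEB1 thus separated the H3K4me3 libraries by file name and not by label. The labels were kept as the grouping, each gene called between H3K4me3 groups is given with both assignments, and the other H3K4me3 directions rest on the labels alone. As a check on the cell line, H3K4me3 covered at least 50% of TSS ± 1 kb at 4, 2, 3 and 6 of 6 mesenchymal promoters. Of 6 epithelial and luminal ones it did so at 2, 2, 2 and 3, in the order All gRNA and No gRNA, replicates 1 and 2. With all deposited peaks the counts were 5, 6, 4 and 6 against 4, 4, 5 and 5, so that the 2 lists were not clearly apart. Of 4 promoters active in every cell, only 1 to 3 reached this level at q ≤ 0.05, and 3 to 4 did with all deposited peaks, so a 0 at the threshold is not an absence of the mark.

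At the threshold H3K9me3 lay over more than 50% of the members in 3 of the 4 libraries. It covered at least 50% of the gene body in 34 and 35 of 59 members in the All gRNA libraries, and in 18 and 31 in the No gRNA libraries, in the order of replicates 1 and 2. The median member was covered to 81.9% and 81.6% with guides and to 0% and 64.5% without. Over all protein-coding genes the same level was reached by 2.80%, 2.78%, 1.12% and 3.20% of genes. Counting members at this level in at least 2 of the 4 libraries gave 35 of 59 (59.3%), against a background of 2.79%. No gRNA replicate 1 stood apart from the other 3 libraries at this threshold. With all deposited peaks it did not. The level was then reached by 47 and 47 members with guides and by 45 and 48 without. Of the whole region, genes and intervals together, peaks at the threshold covered 53.9% and 53.5% with guides and 26.8% and 50.4% without. Of the rest of chromosome 19 they covered 29.6%, 29.1%, 19.0% and 28.5%.

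By library, the members fell into 4 classes at the threshold. In 17 genes the body was covered to at least 50% in all 4 libraries, and in 11 of these to 100% in all 4: ZNF835, ZNF416, ZNF530, ZNF134, ZNF418, ZNF256, ZNF606, ZNF135, ZNF329, ZNF274 and ZNF544. In another 11 genes, ZNF582, ZNF444 and ZNF417 among them, every library but No gRNA replicate 1 reached 50%. All deposited peaks of No gRNA replicate 1 covered the bodies of ZNF582, ZNF444 and ZNF417 to 100%, 79.5% and 94.6%. In 17 genes no library had any peak at the threshold over the gene body. The remaining 14 were mixed. The heat map of peak coverage shows that these classes were runs of neighbours rather than scattered genes. The covered genes were also longer, with a median of 22372 bases for the 17 covered in all libraries against 8455 bases for the 17 with none (Spearman rho of length and mean coverage across the 59 members 0.43, a description, since neighbours share peaks).

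Going towards the telomere, the genes formed 4 blocks with no more than 200 kb between neighbouring starts. The first block, ZNF628 to ZNF581, held 7 genes, none with a KRAB match, and had 0% H3K9me3 over every gene body in every library. ZNF580, which encodes a small protein with few fingers, belonged to this block. Its H3K4me3 coverage was 100% and 0% with the All gRNA label and 0% and 100% with the No gRNA label. ZNF628 had 0% of either mark at the threshold. Its strongest H3K4me3 peaks had q of 0.0632 and 0.225 with the All gRNA label and of 0.152 and 0.0661 with the No gRNA label, just short of the threshold in 2 of the 4.

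The second block held ZNF787 and ZNF444. At the threshold ZNF787 was covered by H3K9me3 to 22.6% in All gRNA replicate 2 and to 0% in the others. All deposited peaks covered its body to 97.2% and 96.8% with guides and to 84.8% and 97.0% without. ZNF444, which encodes a SCAN domain protein, was covered at the threshold to 66.6% and 65.7% with guides and to 0% and 64.5% without. There 3 libraries were alike and No gRNA replicate 1 was not. All deposited peaks covered ZNF444 to 96.6% and 94.0% with guides and to 79.5% and 86.7% without.

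In the third block, ZNF582 to ZNF835, at least 50% of the body was covered in 7, 7, 5 and 7 of its 7 genes. ZNF835 was at 100% in all 4 libraries, the highest of the block. ZNF582, whose promoter is known to be methylated in cervical carcinoma, was the lowest at the threshold. It was covered to 100% and 100% with guides and to 0% and 94.5% without. All deposited peaks of No gRNA replicate 1 covered it to 100%. ZNF667 was covered to 97.4% and 92.5% with guides and to 85.5% and 89.5% without. ZNF471 was covered to 81.9% and 81.6% with guides and to 82.0% and 73.6% without. Both are known as genes with promoter methylation in carcinomas, and both were marked in every library here, with group means 7.48 (ZNF667) and 3.93 points (ZNF471) apart. ZNF71 was covered to 100% in 3 libraries and to 96.8% in No gRNA replicate 1.

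The fourth block, ZNF264 to ZNF446, held 43 genes, 38 of them with a KRAB match, and was not uniform. At its start, ZNF805, ZNF460, ZNF543 and ZNF304 had 0% H3K9me3 over the body in all libraries, apart from 1.26% for ZNF805 and 43.1% for ZNF460 in No gRNA replicate 2. ZNF304 is known to direct silencing of the INK4-ARF locus in colorectal cancer cells. At the threshold H3K4me3 covered its TSS ± 1 kb to 100% and 100% with the All gRNA label and to 0% and 97.7% with the No gRNA label. All deposited H3K9me3 peaks covered the ZNF304 body to 93.0% and 100% with guides and to 91.9% and 85.2% without. ZNF416, ZNF530 and ZNF134, in the middle of the block, were at 100% H3K9me3 in every library. From ZNF418 to ZNF544 all 7 neighbours were at 100% in every library, the longest such series. ZNF274, whose product recruits SETDB1 to genes of this family, lay inside it and was itself at 100% in all 4, with peak q of 0.00384 and 0.00437 with guides and of 0.0295 and 0.00214 without.

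This last stretch was the longest H3K9me3 run of the region in every library. With gaps of up to 1 kb joined, the run over the ZNF544 start was 440793 and 424230 bases long in the All gRNA libraries and 388339 and 377677 bases long in the No gRNA libraries, and held the starts of 10, 9, 9 and 8 members. Both All gRNA runs were longer than both No gRNA runs at q ≤ 0.05. Without a threshold the 4 lengths were 440793, 424230, 447986 and 377677 bases, and the groups overlapped. The centromeric end lay between bases 57836835 and 57916240 of chromosome 19 at q ≤ 0.05. The telomeric end was at base 58277627 in All gRNA replicate 1 and at 58278061 in All gRNA replicate 2 and No gRNA replicate 2, close to the ZNF8 start at 58278955. In No gRNA replicate 1 the run went on to 58304578. Coverage at q ≤ 0.05 also resumed beyond the end of the run in 2 other libraries. There the last covered base before ZNF497 was 58301698 (All gRNA replicate 2) and 58305259 (No gRNA replicate 2). In All gRNA replicate 1 it did not resume before ZNF497.

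The break at ZNF8 was present even with no threshold on q. The deposited peak lists left uncovered bases 58277628 to 58278642 in All gRNA replicate 1, 58278062 to 58280042 in All gRNA replicate 2 and 58278062 to 58279216 in No gRNA replicate 2, and the ZNF8 start lay inside the latter 2 gaps. No gRNA replicate 1 had no gap there. Past ZNF8 no member was marked at the threshold. The last 7 members, ZNF497 to ZNF446, had 0% over the gene body in all 4 libraries, although 4 of them matched the KRAB pattern. From ZNF497 to the end of chromosome 19 peaks at q ≤ 0.05 covered 0% of the sequence in 3 libraries and 1.35% in No gRNA replicate 2. All deposited peaks covered 25.6% to 32.3% of it, and ZNF132, whose promoter is known to be methylated in oesophageal carcinoma, was then covered to 100%, 87.0%, 100% and 88.4%.

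KRAB matches and position were confounded. H3K9me3 covered at least 50% of the body in at least 2 libraries in 30 of 43 members with a KRAB match and in 5 of 16 without, but the first 2 blocks held no KRAB match at all. Within the fourth block the counts were 25 of 38 and 2 of 5. Which of the protein class and the position goes with the mark cannot be told apart from these genes.

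Along the gene, the profile depended on the peaks used. Cut into 5 equal parts from start to end, the member bodies had mean coverage of 55.2% in the first and 55.8% in the last part in All gRNA replicate 1, 52.6% and 56.8% in All gRNA replicate 2, 31.6% and 30.4% in No gRNA replicate 1, and 51.3% and 50.4% in No gRNA replicate 2. In the other ZNF genes of chromosome 19 it went from 70.6% to 79.8%, 71.4% to 78.4%, 38.3% to 42.5% and 65.5% to 71.6% in the same libraries. All deposited peaks gave the members a higher last part in each of the 4 libraries, from 75.1% to 83.0%, 74.5% to 84.0%, 73.0% to 78.7% and 73.5% to 78.2%, and the other ZNF genes of chromosome 19 went from 79.8% to 87.0%, 81.3% to 86.3%, 76.4% to 82.0% and 75.9% to 81.9%. The last part was thus the higher one in both sets with all peaks, and at q ≤ 0.05 in 2 of 4 libraries for the members and in 4 of 4 for the others. These differences were not tested. The last exon, which encodes the fingers, minus TSS ± 1 kb gave a median of 0 points over the members. The last exon was more covered in 17 members, the TSS in 8, and 34 were equal, by the mean of 4 libraries. Among the other ZNF genes of chromosome 19 the counts were 84, 58 and 48. The broad peaks, which often span whole genes, limit how fine a difference could be seen.

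Compared with the ZNF genes of the rest of chromosome 19, fewer members were covered. The level of 50% was reached by 57.6%, 59.3%, 30.5% and 52.5% of members and by 78.4%, 77.4%, 45.3% and 73.7% of the others, lower in each of the 4 libraries. ZNF genes of other chromosomes reached it in 19.5%, 18.7%, 8.24% and 19.9%. The size of the difference depended on the threshold. With all deposited peaks the level was reached by 79.7%, 79.7%, 76.3% and 81.4% of members and by 91.6%, 92.1%, 88.4% and 88.4% of the other chromosome 19 genes. Median coverage was then 94.3%, 93.7%, 90.8% and 89.5% for the members and 94.0%, 94.6%, 90.5% and 89.4% for the other chromosome 19 genes. These are descriptions, since genes of a cluster share peaks and are not replicates.

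At the promoters, H3K4me3 covered at least 50% of TSS ± 1 kb in 22 and 6 members with the All gRNA label and in 5 and 32 with the No gRNA label. The corresponding shares of members, 37.3%, 10.2%, 8.47% and 54.2%, lay near those of all protein-coding genes, 32.3%, 11.2%, 9.0% and 51.7%. In at least 2 libraries the level was reached by 20 of 59 members (33.9%), and the background was 34.3%. Without No gRNA replicate 2 this count was 7 (background 13.4%), and leaving out instead All gRNA replicate 1, by its label, it was 9 (background 16.2%). The share of members was close to the background. Without a threshold on q, 39 members reached it in all 4 libraries.

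Only ZNF805 and ZNF543 reached this level in all 4 libraries at q ≤ 0.05. ZNF805 was at 100% and 96.9% with the All gRNA label and at 96.9% and 100% with the No gRNA label, and ZNF543 at 84.7% and 81.8% and at 80.7% and 83.8%. At the threshold H3K9me3 covered no more than 1.26% of either body. All deposited peaks covered 92.6%, 82.4%, 59.7% and 67.6% of the ZNF543 body and 59.8%, 60.3%, 44.3% and 46.9% of that of ZNF805. A further 11 members reached it in just the first library labelled All gRNA and the second labelled No gRNA, which were the 2 with the most H3K4me3 peaks, and 22 members had 0% in all 4. The CG content of the promoter was alike in both classes, with a median of 22 in the 18 members that reached the level in 2 libraries and had a promoter entry and of 23 in the 36 that did not (Spearman rho -0.04 across the 54).

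At q ≤ 0.05 the marks were mostly on different members, and with all deposited peaks they were mostly on the same ones. Of the 35 genes with H3K9me3 on the body in at least 2 libraries, 8 (22.9%) had H3K4me3 at the start in at least 2 libraries, and of the other 24 members 12 (50%) did. Over all protein-coding genes the shares were 18.1% and 34.7%. All deposited peaks put H3K9me3 on 48 members (background 9.37%), H3K4me3 on 49 (background 75.7%) and both on 38 (background 4.05%) by the same levels. The 8 genes with both were 13.6% of the members, with a background of 0.506%. They were 1 without the second library labelled No gRNA (background 0.165%) and 2 without the first labelled All gRNA (background 0.225%). With all libraries they were ZNF71, ZNF749, ZNF419, ZNF773, ZNF550, ZNF417, ZNF329 and ZNF544. In 7 of them, all but ZNF749, H3K9me3 also covered at least 50% of TSS ± 1 kb in at least 2 libraries (background 0.33%).

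ZNF329 was at 100% H3K9me3 in all 4 libraries and had H3K4me3 coverage of 100% and 100% with the All gRNA label and of 0% and 100% with the No gRNA label. ZNF544, also at 100% H3K9me3 throughout, had H3K4me3 coverage of 100% and 0% with the All gRNA label and of 0% and 100% with the No gRNA label. ZNF71 had H3K4me3 coverage of 100% and 0%, and of 0% and 97.6%, in the same order. ZNF550 was covered by H3K9me3 to 94.3% and 93.7% with guides and to 69.9% and 93.9% without, and by H3K4me3 to 0% and 100% and to 0% and 94.6%. These 4 genes had H3K9me3 in all 4 libraries, whereas H3K4me3 was at 0% in 1 or 2 of them. ZNF419, a known source of a minor histocompatibility antigen, was less stable at the threshold. Its H3K9me3 coverage was then 0% and 81.2% with guides and 0% and 95.5% without. Its H3K4me3 coverage was 100% and 0%, and 0% and 100%. With all deposited peaks H3K9me3 covered the ZNF419 body to 93.6% and 81.2% with guides and to 100% and 95.5% without. The marks were measured in separate libraries, so that both on 1 chromosome copy and each on a different copy or cell cannot be told apart.

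The guides target ZEB1 on another chromosome, and the comparison of All gRNA with No gRNA asks whether the H3K9me3 of these genes differed between cells with and without them. A gene was called when the lowest library of 1 group lay at least 25 points above the highest of the other. This rule did not call the targeted gene ZEB1 for H3K9me3 over the body or TSS ± 10 kb. Its lowest All gRNA library was at 22.8% over TSS ± 10 kb, with both No gRNA libraries at 0%. With 2 libraries against 2, the exact two-sided permutation test has 6 labellings and cannot go below p = 0.333, so no single gene could pass 0.05. Over the gene body 4 of 59 members (6.78%) were higher in All gRNA, against 0.16% of all genes, and 0 were lower, against 0.01%. The group means were equal in 15223 of the 19970 genes and in 28 of the members, and such genes cannot be called. Most of the background was thus outside the reach of the rule, and the shares are not a contrast with genes marked alike. The share called was not counted for the other ZNF genes of chromosome 19. Over TSS ± 10 kb 4 were higher (background 0.225%) and 0 lower (0.00501%). Without No gRNA replicate 2 the counts higher were 18 (background 1.83%) and 17 (background 1.78%). With all 4 libraries, the 5 genes called over the body or TSS ± 10 kb were ZNF264, ZNF776, ZNF586, ZNF587 and ZNF814. All were in the fourth block and had a KRAB match.

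ZNF776 (ENSG00000152443.13, chr19:57746815-57758148, plus strand) was covered to 100% and 100% with guides and to 0% and 0% without. ZNF587 (ENSG00000198466.12, chr19:57849859-57865117, plus strand) was covered to 100% and 74.0% with guides and to 0% and 0% without. ZNF264 (ENSG00000083844.11, chr19:57191500-57222846, plus strand) was covered to 54.4% and 70.6% with guides and to 8.52% and 1.23% without, a difference in means of 57.6 points (62.5 ± 11.5 against 4.87 ± 5.16, SD, n = 2 each, exact permutation p = 0.333). In these 3 genes every All gRNA library lay far above both No gRNA libraries. ZNF814 (ENSG00000204514.11, chr19:57848731-57889074, minus strand) was covered to 100% and 87.4% with guides and to 0% and 57.3% without, with the 2 No gRNA libraries 57.3 points apart. ZNF586 (ENSG00000083828.16, chr19:57769655-57819939, plus strand) was called over TSS ± 10 kb, at 100% and 100% with guides and 0% and 69.8% without. The bodies of ZNF587 and ZNF814 overlap on opposite strands and share peaks, and count as 1 place rather than 2 independent ones.

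Each call depended on which peaks passed the threshold. The strongest peak on ZNF776 had q of 0.0435 and 0.0456 with guides and of 0.0805 and 0.0876 without, on either side of 0.05, and its fold enrichment was 1.99 and 1.95 against 2.03 and 1.81. The strongest peak on ZNF587 had q of 0.00384 and 0.00437 with guides, as part of the long run over ZNF274, and of 0.150 and 0.0561 without. With all deposited peaks ZNF776 was covered to 100% and 100% against 91.4% and 92.6%, ZNF587 to 100% and 90.7% against 91.9% and 92.2%, and ZNF264 to 92.8% and 92.7% against 79.4% and 78.8%. No member was then called in either direction over the body (background 0.401% higher and 0.24% lower) or TSS ± 10 kb (0.18% and 0.0351%). Peaks at the threshold covered 197.8 and 188.1 Mb of the genome in the All gRNA libraries and 97.6 and 238.1 Mb in the No gRNA libraries. When every library was cut to the covered length of the smallest, 4 members were higher over the body (background 0.305%), of which 2 (ZNF587 and ZNF814) were the same genes, and 4 over TSS ± 10 kb (background 0.305%), of which 1 (ZNF587) was the same.

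A weaker rule, chosen after the data had been seen, asked only that the groups do not overlap. Over the body it gave 15 members higher in All gRNA at q ≤ 0.05 (background 2.59%) and 1 lower, ZNF8 (background 1.58%). Over TSS ± 10 kb it gave 9 (background 1.65%) and 1 (background 0.541%). With all deposited peaks there were 19 higher over the body (background 10.8%) and 4 lower (background 24.5%), and 19 (background 11%) and 5 (background 24.4%) over TSS ± 10 kb. In that setting 32.2% of members were higher over the body and 6.78% lower, whereas over all genes more were lower than higher. Over the body ZNF444, ZNF583, ZNF667, ZNF470, ZNF264, ZNF772, ZNF776, ZNF586 and ZNF417 were higher under both sets of peaks. In ZNF583, ZNF667, ZNF470 and ZNF444 the nearest libraries of the 2 groups were 1.17 to 4.36 points apart at q ≤ 0.05. With all deposited peaks they were 0.026 (ZNF583) to 7.33 points (ZNF444) apart. The gaps at q ≤ 0.05 and with all deposited peaks were 45.9 and 13.3 points for ZNF264, 100 and 7.41 for ZNF776, and 6.43 and 0.857 for ZNF586.

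Over all members the mean of All gRNA minus No gRNA was 14.2 points and the median 0, with 27 positive, 4 negative and 28 at 0. The other ZNF genes of chromosome 19 had a larger mean of 20.6 and median of 13.3 points, with 152 positive and 17 negative of 190. By library, mean coverage of the members was 54.8% and 55.8% with guides and 31.1% and 51.1% without. That of the other ZNF genes of chromosome 19 was 76.5% and 76.0% against 41.5% and 69.8%. In both sets No gRNA replicate 1 was at the threshold far below No gRNA replicate 2, which lay much nearer the All gRNA libraries. With all deposited peaks mean coverage in No gRNA replicates 1 and 2 was 75.1% and 76.6% for the members. It was 80.8% and 80.6% for the other ZNF genes of chromosome 19. With all deposited peaks the median difference over the members was 1.61 points, with 35 positive and 12 negative. It was -0.53 over all genes and 3.28 over the other ZNF genes of chromosome 19. ZNF8, named after its values were seen, had the groups apart in the other direction, at 0% and 90.9% with guides and at 100% and 98.9% without. Its peak in All gRNA replicate 1 had q = 0.0572, and with all deposited peaks its coverage was 100%, 90.9%, 100% and 98.9%.

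For H3K4me3, 0 members were higher with the All gRNA label (background 0.135%) and 1 was lower, ZNF460 (1.69% of members, background 1.62%). It was covered to 0% and 0% with the All gRNA label and to 100% and 100% with the No gRNA label. With the 2 libraries exchanged, ZNF460 was at 0% and 100% in each group and was not called. The counts were then 0 higher (background 0.1%) and 1 lower (background 1.67%), and the lower gene was ZNF550, at 0% and 0% against 100% and 94.6%. The strongest peak over ZNF460 had q of 0.0531 and 0.169 against 0.0255 and 0.0156, and with all deposited peaks all 4 libraries were at 100%. With all deposited peaks ZNF835, at 47.7% and 41.7% against 0% and 0%, and ZNF211, at 71.0% and 83.2% against 0% and 21.7%, were higher with the All gRNA label (2 members, background 1.78%), and 0 were lower (2.21%). After the exchange neither kept its groups apart, at 47.7% and 0% against 41.7% and 0% for ZNF835 and at 71.0% and 0% against 83.2% and 21.7% for ZNF211. Groups that merely do not overlap gave 1 member higher, ZNF304 (background 0.481%), and 1 lower (background 2.2%) at q ≤ 0.05. With the 2 libraries exchanged, ZNF304 was at 100% and 0% against 100% and 97.7%, and its groups overlapped. With all deposited peaks there were 6 higher (background 6.33%) and 2 lower (background 7.6%), counted by the labels alone.

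TRIM28, which encodes KAP1, lies between ZNF446 and the end of chromosome 19 and is no member. It had 0% H3K9me3 over the body in all 4 libraries, and its H3K4me3 coverage was 100% and 0% with the All gRNA label and 0% and 100% with the No gRNA label. The gene of the corepressor thus lay outside the H3K9me3 run. Of 17 genes for the corepressor and the H3K9 methylation machinery, 0 reached 50% H3K9me3 over the body in any library and 0 were called for it in either direction. H3K4me3 reached 50% of TSS ± 1 kb in 8, 2, 2 and 13 of them in the order used above. EHMT1, a gene of an H3K9 methyltransferase named after its values were seen, was the 1 that was lower with the All gRNA label, at 0% and 0% against 100% and 100%. With the 2 libraries exchanged it was at 0% and 100% in each group, and the call was lost.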

How the data were processed

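Native ChIP-seq (micrococcal nuclease digestion, antibodies ab8898 for H3K9me3 and ab8580 for H3K4me3) was analysed in 8 libraries, 2 All gRNA and 2 No gRNA per mark, grouped by their labels. The authors trimmed reads, aligned them to hg38, removed duplicates and excluded regions, and called broad peaks with MACS2 in each library separately, with no model and a fixed extension. The submitters' processing notes name Bowtie 1.1.2, Trimmomatic 0.33, bcl2fastq 2.17 and MACS2 2.1.0, whereas the study's methods name fastp and bowtie2. The control used for peak calling is not given in the sources used here. The deposited columns hold a score, the fold enrichment (a ratio) and −log10 of the p-value and q-value of each peak, and no counts, so depth is unknown and no count test could be fitted. A broad peak has 1 q for its whole length.

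Members were matched to GENCODE release 44. The peaks with q ≤ 0.05 were merged per library, and the covered percentage of each window was computed for every protein-coding gene of chromosomes 1 to 22 and X (Python 3.11.15, numpy 2.4.6, scipy 1.17.1, matplotlib 3.10.9). The code of the calling rule was run on simulated shares with little spread within a group, unlike these libraries. That run gives no error rate of the rule for these data. Genes named were those called, the highest and lowest of each block for H3K9me3, those with both marks, and a fixed list (ZNF274, ZNF304, ZNF471, ZNF582, ZNF667, ZNF132, ZNF71, ZNF444, ZNF580 and ZNF419). Other names were chosen after the values were seen. The rule allowed 6 genes with both marks, and all 8 are given. The members, lists and tests were chosen with earlier results of these data known. KRAB matches used the patterns [FY][ST]..[EQ]W..L or LYR[DE]VM, and fingers C..C, 12 residues, H, 3 to 5 residues, H, on the GENCODE canonical transcripts. Alternatives were all deposited peaks, q ≤ 0.01, an equal covered length per library, a level of 25%, the start of the canonical transcript, a gap of 50 points, a replicate block, leaving out each library, groups that merely do not overlap, and the exchange of 2 H3K4me3 libraries whose file names give the other condition. Where replicates are technical, the spread between them is too.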

Additional observations from a re-analysis of the deposited data

How the results depend on the processing

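The counts of called members depended on the threshold. Over the gene body, the 4 members higher in All gRNA became 0 with all deposited peaks, 2 at q ≤ 0.01 and 2 with a gap of 50 points, and the 0 lower became 1 at q ≤ 0.01 (ZNF772). Over TSS ± 10 kb, the 4 higher became 0 with all deposited peaks, 2 at q ≤ 0.01 and 1 with a gap of 50 points, and the 0 lower became 1 at q ≤ 0.01 (ZNF772). For H3K4me3 the 0 higher became 2 with all deposited peaks, and the 1 lower became 0 with all deposited peaks, at q ≤ 0.01 and at equal covered length. Asking, after the data had been seen, only that the groups do not overlap gave 15 higher and 1 lower over the body, 9 and 1 over TSS ± 10 kb, and 1 and 1 for H3K4me3. With all deposited peaks the same rule gave 19 and 4, 19 and 5, and 6 and 2.

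The members with H3K9me3 on at least 50% of the body in at least 2 libraries were 35, and 22 at q ≤ 0.01. The 20 with H3K4me3 became 49 with all deposited peaks, 6 at q ≤ 0.01 and 5 at equal covered length, and the 8 with both became 38, 1 and 1. The median of last exon minus TSS ± 1 kb was 0.58 points with all deposited peaks. Leaving out 1 library at a time gave 4 to 18 members higher over the body (18 without No gRNA replicate 2) and 0 to 1 lower, 4 to 17 higher over TSS ± 10 kb (17 without No gRNA replicate 2) and 0 to 1 lower, 0 to 4 higher for H3K4me3 (4 with All gRNA replicate 2 left out, 3 with No gRNA replicate 2) and 1 to 13 lower (13 with No gRNA replicate 1 left out, 3 with All gRNA replicate 1 and 2 with No gRNA replicate 2). It gave 30 to 35 members with H3K9me3, 7 to 19 with H3K4me3 (7 with No gRNA replicate 2 left out, 9 with All gRNA replicate 1), 1 to 8 with both (1 and 2 with the same libraries left out) and a median of 0 to 0 points for the last exon. A replicate block, asking for a difference of 25 points within each replicate number, is given as a value only, since the numbers mark no shared batch in the labels, and left the counts at 4 higher and 0 lower over the body, 4 and 0 over TSS ± 10 kb, and 0 and 1 for H3K4me3. Of 106 alternative values, 59 were within 1.5 times the reported count (for the last exon, within the spread between libraries) and 47 were not. A count within this range need not hold the same genes. At equal covered length 2 of the 4 members over the body and 1 of the 4 over TSS ± 10 kb were the reported ones. With the H3K4me3 libraries exchanged as the file names have them, a setting added after the data had been seen, 0 were higher and 1 lower, and 0 of these were shared. Depth is unknown, coverage by peaks has no finer resolution than the peaks, and 2 libraries a group allow no p under 0.333.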
